A study of Rattus norvegicus with 36 samples.

Results

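Genes of the extracellular matrix, of the proteases that cut it and of the integrins that hold cells to it were examined in rat kidneys after acute injury. They were taken by name. A gene was included where its array symbol began with Col, Lama, Lamb, Lamc or Mmp and a digit, or with Timp, Adamts, Itga or Itgb, and Fn1 was added. The rule found 53 of the 6398 genes with a symbol, on 62 probes, and the brighter probe stood for each of the 9 genes with 2 probes. By role they were 5 genes of the Adamts family, 8 matrix metalloproteinases (MMPs), 3 tissue inhibitors of metalloproteinases (TIMPs), 6 integrin alpha and 4 integrin beta chains, 5 basement membrane collagens, 5 laminin chains, fibronectin, 5 fibrillar collagens and 8 other collagens. The last 3, Itgb1bp1, Itgb1bp2 and Itgbl1, share a prefix with the integrins and are other proteins. Timp1, Mmp3, Mmp7, Mmp14, Col1a2, Col3a1, Lama5, Lamc1 and Itga6 were not analysed here.

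The extracellular matrix of the kidney consists of the basement membranes under tubules, glomeruli and vessels, built from type IV collagen and laminins, and of the interstitial matrix of fibrillar collagens and fibronectin. MMPs and ADAMTS enzymes cut matrix proteins and proteoglycans, and TIMPs block MMPs. Integrins are receptors made of 1 alpha and 1 beta chain that bind the matrix and link it to the cytoskeleton, and tubule cells rely on them to stay attached after ischemic or toxic injury.

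The kidneys came from 31 male rats aged 6-8 weeks in 9 groups. Untreated normal rats numbered 5. Clamping of both renal circulations for 40 min was followed by reperfusion for 2 h in 4 rats and for 8 h in 3 rats, and a further 3 rats studied at 2 h also received 50 µg of alpha melanocyte stimulating hormone (aMSH), an anti-inflammatory peptide, intravenously. Mercuric chloride, a proximal tubule toxin, was given subcutaneously at 4 mg/kg and the kidneys were taken 2 h or 8 h later (3 rats each). Cisplatin, a nephrotoxic anticancer drug, was given intraperitoneally at 20 mg/kg to 3 rats studied at 2 h. Controls were 3 rats at 8 h after a 40 min sham operation, and 4 rats at 24 h of volume depletion, brought about with a sodium-deficient diet and the loop diuretic furosemide at 20 mg/kg, repeated at 8 h. The labels do not name the strain. All were whole kidney, so a lower value may come from fewer cells of a type or from less RNA per cell, and these cannot be told apart.

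RNA was hybridised to 36 1-colour CodeLink arrays, 2 arrays for each of 5 rats, which were averaged. Values are log2 of the intensity over the array median, so 0 is the median and each unit is a doubling. A floor of 0.1 of the median was set, at -3.32. All 53 genes passed the filter on low values in all 15 comparisons. Of these, 47 lay above the floor in all rats. Col10a1 did so in 3 rats, Mmp12 in 4, Itgb1bp2 in 16, Mmp10 in 21 and Col26a1 and Itgb7 in 29. The arrays fell into 2 lots of 24 and 12. Normal rats 1 to 3 served for the ischemia, mercuric chloride 2 h and volume depletion groups, and normal rats 11 and 12 for the sham, cisplatin and mercuric chloride 8 h groups. The 2 sets of normal rats differed by a median of 0.27 over the 53 genes, without sign, and by over 0.5 for 6 of them. The largest gaps were 1.10 for Lama3, higher in rats 11 and 12, and -0.81 for Adamts1, lower there. The array of rat 3 at 8 h of ischemia stood apart from the rest, with a correlation of 0.916 with the median array against at least 0.958 in the others. The column of sham rat 3 had slipped by 2 lines and was realigned before use. All 5 kidney tubule markers on the array (Umod, Slc12a1, Aqp2, Lrp2 and Slc12a3) lay above the floor in all rats. Of the 3 podocyte markers on the array, Podxl and Wt1 did so in all rats and Synpo in 3 rats.

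Matrix and integrin genes changed at both times after ischemia and after mercuric chloride, and none passed the test in the cisplatin and volume depletion groups (limma, adjusted p under 0.05 over all probes tested, as throughout). At 2 h of ischemia 7 of 53 were higher than normal, against 7.36% of all probes, and none was lower, against 7.37%. An unadjusted p under 0.05 was found for 20 of the 53 and for 2519 of 9466 probes. With aMSH at 2 h 5 were higher (6.68% of all probes) and none was lower (6.58%). Here 12 had an unadjusted p under 0.05 (2467 of 9433 probes). After 8 h of ischemia 11 were higher and 11 lower, against 20.8% and 20.9% of all probes, so the share of these genes, 20.8% each way, was that of the array. Without ischemia rat 3, whose array stood apart, 9 were higher and 12 lower. Mercuric chloride raised 3 (3.07% of all probes) and lowered 5 (4.61%) at 2 h. By 8 h it raised none (5.27%) and lowered 3 (5.67%), with 12 at an unadjusted p under 0.05 (2090 of 9408 probes). Cisplatin raised none (0.532%) and lowered none (0.0425%), with 2 at an unadjusted p under 0.05 (576 of 9405 probes). The sham operation raised none (0.298%) and lowered 1 (0.0531%), with 4 at an unadjusted p under 0.05 (534 of 9408 probes). Volume depletion raised none (0.074%) and lowered none (0.0951%), with 14 at an unadjusted p under 0.05 (565 of 9464 probes). The median change of the 53 ran from -0.12 in volume depletion, where that of all probes was 0.00, to 0.06 after cisplatin, where it was 0.02. In all, 27 genes passed in at least 1 group and 26 in none. The matching share of all probes was not counted, so these counts do not set the genes apart from the array. Some counts moved with single rats. After mercuric chloride at 8 h, 1 gene passed without normal rat 12 and 5 without treated rat 3, and at 2 h 4 passed without treated rat 3. With aMSH, 2 passed without aMSH rat 1.

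**Figure D1:**
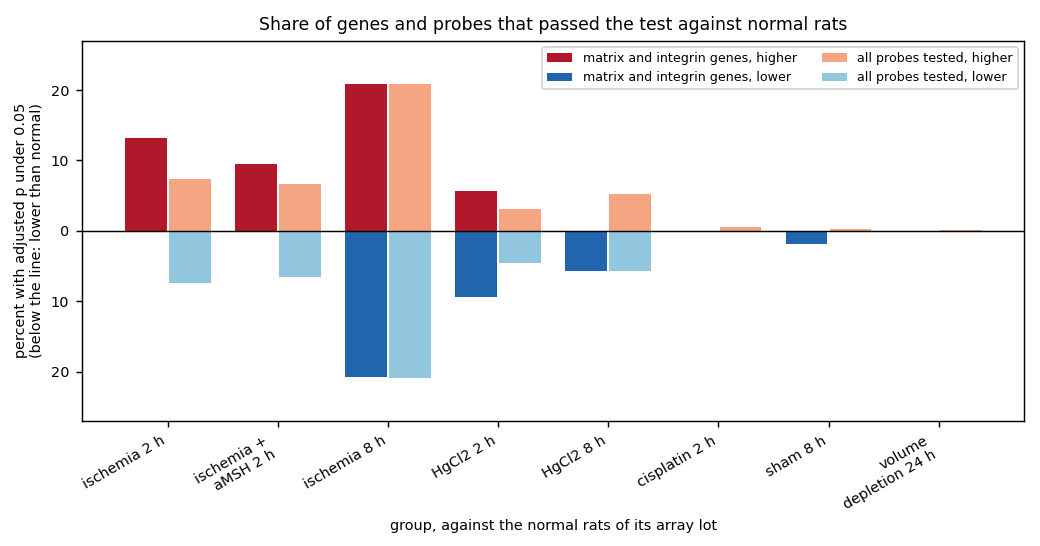
Percent of the 53 matrix and integrin genes (dark bars) and of all probes tested (light bars) with an adjusted p under 0.05 against normal rats, above the line for higher and below it for lower values, in each of the 8 groups. At 8 h of ischemia both stand near 21% each way, and at 2 h of ischemia the 13.2% of genes that were higher stand beside 7.36% of probes.

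**Figure D2:**
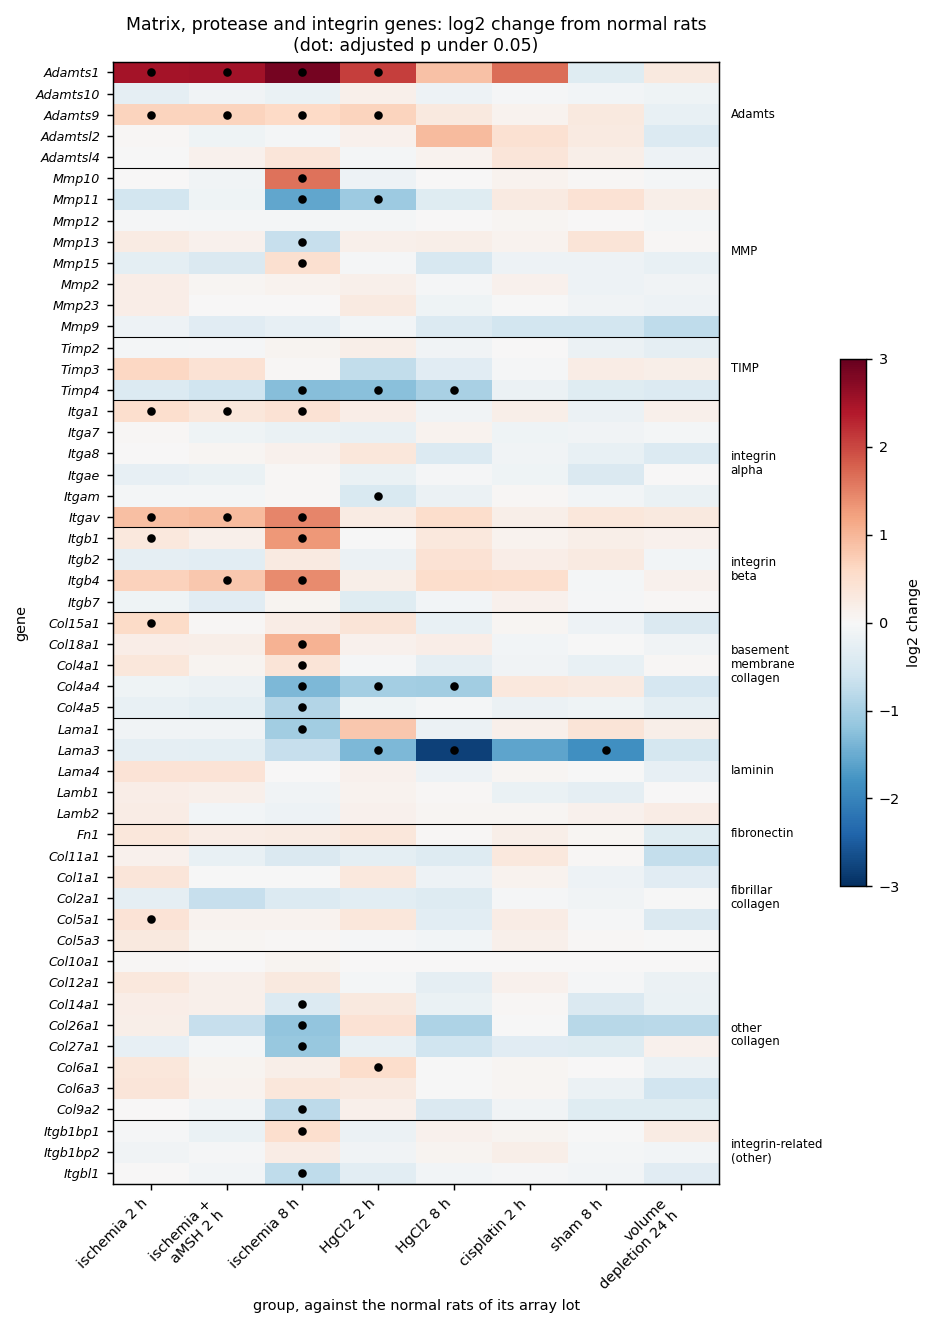
Log2 change of each of the 53 genes from the normal rats of its array lot, with genes in lines ordered by role and the 8 groups in columns. Red is higher, blue is lower and a dot marks an adjusted p under 0.05; the 8 h ischemia column holds 22 dots, and Adamts1 and Adamts9 carry dots in 4 columns each.

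Among the proteases, Adamts1 rose most. It encodes a secreted metalloproteinase that cuts aggrecan and versican. Normal rats 1 to 3 read 2.67, 2.05 and 2.41, and the 4 rats at 2 h of ischemia read 4.94, 5.03, 4.88 and 4.67. With aMSH the 3 rats read 4.69, 4.95 and 5.01, at 8 h of ischemia 5.14, 5.12 and 5.45, and at 2 h of mercuric chloride 4.62, 4.51 and 4.21. Each of these 13 rats lay above every normal rat, with no overlap in any group. The log2 changes were 2.50 (SE 0.38, adjusted p = 3.94e-05), 2.51 (SE 0.41, adjusted p = 0.000106), 2.86 (SE 0.41, adjusted p = 4.00e-06) and 2.07 (SE 0.41, adjusted p = 0.00225), or 5.67-, 5.69-, 7.27- and 4.21-fold.

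In the other array lot, normal rats 11 and 12 read 1.35 and 1.78 for Adamts1, and the cisplatin rats read 1.47, 4.12 and 4.10. The first cisplatin rat lay among the normal rats and the other two far above them. The change of 1.67 (SE 0.46) did not pass (adjusted p = 0.133), and without cisplatin rat 1 it was 2.55 (adjusted p = 7.92e-07). The rats at 8 h of mercuric chloride read 2.10, 2.55 and 2.70, all above both normal rats, with a change of 0.89 (SE 0.46) that did not pass (adjusted p = 0.267). The sham rats read 1.27, 1.42 and 0.91 and the volume depleted rats 2.08, 2.89, 2.96 and 2.78, overlapping their normal rats in both cases.

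Adamts9, a relative that also cuts versican and aggrecan, rose in the same 4 groups by far less. Normal rats 1 to 3 read 0.30, -0.06 and 0.04. The rats at 2 h of ischemia read 0.81, 0.68, 0.54 and 1.01, those with aMSH 1.01, 0.80 and 0.44, those at 8 h 0.50, 0.46 and 1.13, and those at 2 h of mercuric chloride 0.62, 0.97 and 0.71. The groups did not overlap the normal rats, though the lowest treated values came near the highest normal one. The changes were 0.67, 0.66, 0.60 and 0.68 (SE 0.17 to 0.18, adjusted p from 0.00732 to 0.0209). The 8 h ischemia call was lost without rat 3 (0.39, adjusted p = 0.0773), the aMSH call without normal rat 2 or aMSH rat 1, and the mercuric chloride call without any of 4 rats in turn (adjusted p up to 0.0954). Adamts10 and the ADAMTS-like proteins Adamtsl2 and Adamtsl4 passed in no group.

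The promoters of these 2 genes are shown because they were the only members that passed in the same direction in at least 4 groups. The share of all probes that did so was not counted, so this does not set the 2 genes apart from the array. The 4 groups were also set against the same normal rats, so their calls were not independent. Each window runs from 250 bases before to 50 bases after the RefSeq gene start in assembly GRCr8, at chr11:38427335-38427634 for Adamts1 and chr4:127019827-127020126 for Adamts9, both on the minus strand. The motif searched was TGANTCA, the AP-1 element, which reads the same on both strands and is in 7.33% of 33469 windows. Neither window holds it. Of the 42 members with a window, 5 held it, namely Mmp10, Mmp12, Mmp13, Lama3 and Col6a1.
Adamts1: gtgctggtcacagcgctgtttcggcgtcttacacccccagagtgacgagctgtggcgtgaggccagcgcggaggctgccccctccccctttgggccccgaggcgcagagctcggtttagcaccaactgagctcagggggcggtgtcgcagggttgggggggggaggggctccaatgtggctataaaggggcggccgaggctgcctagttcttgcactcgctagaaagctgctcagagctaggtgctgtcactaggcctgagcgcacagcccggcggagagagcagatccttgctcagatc
Adamts9: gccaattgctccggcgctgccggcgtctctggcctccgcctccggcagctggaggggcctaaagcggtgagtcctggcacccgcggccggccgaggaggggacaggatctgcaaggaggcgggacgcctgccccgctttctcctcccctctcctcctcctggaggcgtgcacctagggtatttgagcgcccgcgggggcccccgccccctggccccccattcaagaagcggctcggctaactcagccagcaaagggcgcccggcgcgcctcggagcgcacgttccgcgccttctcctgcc

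Among the 8 MMPs, 2 rose and 2 fell at 8 h of ischemia, near the 20.8% and 20.9% of all probes. Mmp10, or stromelysin 2, cuts proteoglycans, fibronectin and other matrix proteins and activates other MMPs. Normal rats 1 to 3 read -2.97, -3.21 and -3.32 for it, the last at the floor, and the 8 h rats read -1.37, -1.14 and -2.10. The 3 treated rats were all higher, so the change of 1.63 (SE 0.19, adjusted p = 2.40e-07) is 3.09-fold from a level near the floor, which holds it down. Of the 4 rats at 2 h of ischemia 2 were at the floor, the highest reading -2.86. In all other groups Mmp10 lay between the floor and -2.48, and its changes from normal were between -0.16 and 0.11, none past the test. With a floor of 0.25 of the median, Mmp10 fell short of the filter, which asked for 3 rats above the floor, and was not tested. Rats 1 and 2 at 8 h of ischemia read 0.386 and 0.455 of the median, rat 3 read 0.233, and every other rat was lower. Mmp15, a membrane-bound MMP, read 0.05, 0.09 and 0.43 against -0.18, -0.44 and -0.24 in normal rats 1 to 3. Its rise was 0.48 (SE 0.18, adjusted p = 0.0392), with no overlap of these rats. The difference of means without ischemia rat 3, not tested, was 0.35. Normal rats 11 and 12, of the other lot, read -0.05 and 0.17 for Mmp15, the latter above ischemia rats 1 and 2.

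Mmp11 and Mmp13 fell. Mmp11, or stromelysin 3, is a secreted MMP that is activated inside the cell. Normal rats 1 to 3 read 1.31, 1.15 and 1.20, and the 8 h ischemia rats -0.61, -0.60 and 0.19, all below. The fall was 2.95-fold (log2 -1.56, SE 0.22, adjusted p = 4.06e-06), and the other probe of the gene gave -0.91 (SE 0.20, adjusted p = 0.000718). Mmp11 at 2 h of mercuric chloride read 0.08, 0.20 and 0.09, again below every normal rat, a change of -1.10 (SE 0.22, adjusted p = 0.00302). By 8 h of mercuric chloride it read 0.24, 0.19 and 0.83 against 0.81 and 0.74 in normal rats 11 and 12, with rat 3 as high as the normal rats and a change of -0.36 (SE 0.25) that did not pass. Mmp13, or collagenase 3, which cuts fibrillar collagen, read 1.31, 1.23 and 0.59 at 8 h of ischemia, with rat 3 lowest. All were lower than normal rats 1 to 3, at 1.64, 1.76 and 1.78. The Mmp13 change was -0.68 (SE 0.19, adjusted p = 0.00603), and the difference of means without rat 3, not tested, was -0.45. Normal rats 11 and 12, of the other lot, read 1.81 and 1.17 for Mmp13, the latter below ischemia rats 1 and 2.

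The gelatinases Mmp2 and Mmp9, which cut type IV collagen, passed in no group. Mmp2 changed by between -0.16 and 0.20. Mmp9 varied widely between rats of a group, from -0.18 to 1.25 in normal rats 1 to 3, and its changes of -0.77 to -0.07 had SEs of 0.36 to 0.43. Mmp12, macrophage elastase, was at the floor in 27 of 31 rats, and Mmp23 passed in no group.

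The promoter windows of Mmp10 and Mmp13 are shown as a contrast chosen after their values were seen: the genes lie on 1 chromosome, both windows hold the AP-1 motif in capitals at a similar place, and their levels moved in opposite directions at 8 h of ischemia. The motif begins at -61 in Mmp10 and at -66 in Mmp13, counted from the gene start. The windows are chr8:12974457-12974756 and chr8:12782579-12782878 in GRCr8, both on the plus strand. A match is a description of the letters and no evidence of binding.
Mmp10: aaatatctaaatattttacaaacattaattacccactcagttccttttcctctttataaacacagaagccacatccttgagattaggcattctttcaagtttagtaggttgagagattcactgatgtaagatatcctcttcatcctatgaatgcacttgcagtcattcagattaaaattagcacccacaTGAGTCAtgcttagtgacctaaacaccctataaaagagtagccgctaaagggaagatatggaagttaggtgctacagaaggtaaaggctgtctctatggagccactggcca
Mmp13: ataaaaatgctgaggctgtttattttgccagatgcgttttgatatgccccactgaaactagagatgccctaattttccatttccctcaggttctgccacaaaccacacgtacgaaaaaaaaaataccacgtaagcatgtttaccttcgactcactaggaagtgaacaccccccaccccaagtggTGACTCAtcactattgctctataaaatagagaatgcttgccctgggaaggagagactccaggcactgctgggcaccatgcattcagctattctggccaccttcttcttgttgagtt

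Of the 3 inhibitors, Timp4 fell in 3 groups and Timp2 and Timp3 passed in none. Of all probes, 20.9% were lower at 8 h of ischemia, and 4.61% and 5.67% at 2 h and 8 h of mercuric chloride. Timp4 read -0.06, -0.18 and -0.45 in normal rats 1 to 3, against -1.65, -1.70 and -1.19 at 8 h of ischemia and -1.41, -1.34 and -1.74 at 2 h of mercuric chloride. No treated rat reached the lowest normal one. The changes were -1.28 (SE 0.20, adjusted p = 1.65e-05) and -1.26 (SE 0.20, adjusted p = 0.000247), falls of 2.43-fold and 2.40-fold. Timp4 at 8 h of mercuric chloride read -0.86, -0.83 and -1.27 against -0.40 and 0.36 in normal rats 11 and 12. The change of -0.97 (SE 0.23, adjusted p = 0.00545) rested on normal rat 12, without which it was -0.59 (adjusted p = 0.269). After 2 h of ischemia Timp4 changed by -0.41 without aMSH and by -0.59 with it, and neither passed.

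Timp3, the inhibitor bound to the matrix, moved apart between ischemia and mercuric chloride at 2 h. The ischemia rats read 3.10, 3.25, 2.95 and 2.74 and the mercuric chloride rats 1.64, 1.85 and 1.44, with normal rats at 2.71, 2.35 and 2.09 between them. Against normal the changes of 0.63 (SE 0.24, adjusted p = 0.0857) and -0.74 (SE 0.26, adjusted p = 0.0792) did not pass, while the direct difference of 1.37 (SE 0.24, adjusted p = 0.000253) did. At 8 h of ischemia the 3 rats read 1.96, 2.05 and 3.22, with rat 3 far from the others. Timp2, which blocks MMPs and takes part in activating Mmp2, changed by between -0.26 and 0.18.

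**Figure D3:**
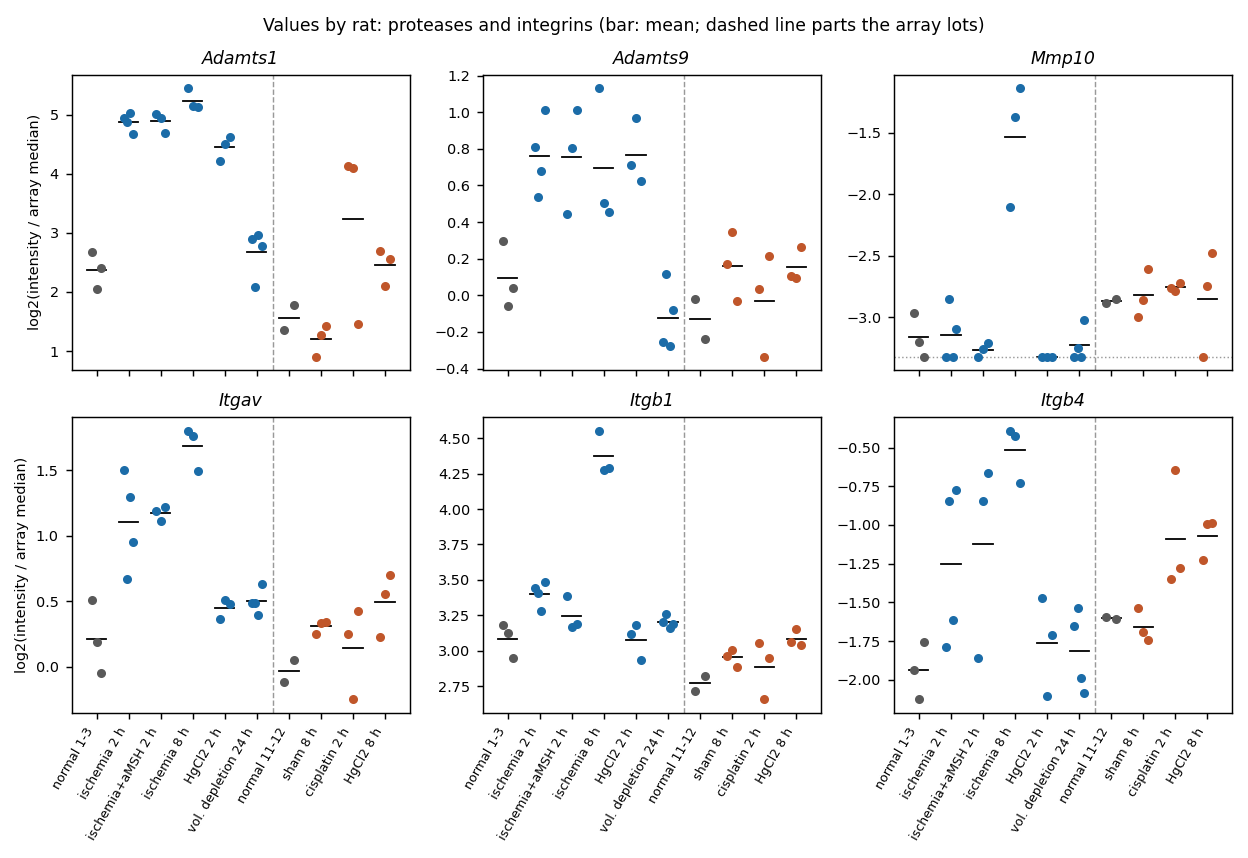
Log2 of intensity over the array median for 6 genes, a point for each rat and a bar for each group mean, with array lot 1 left of the dashed line and lot 2 right of it; the dotted line in the Mmp10 panel is the floor. Adamts1 stands above the normal rats in all 13 ischemia and 2 h mercuric chloride rats, the cisplatin rats split into 1 low and 2 high, and Mmp10, Itgav, Itgb1 and Itgb4 are highest at 8 h of ischemia.

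Among the integrins, the alpha chains Itgav and Itga1 and the beta chains Itgb1 and Itgb4 rose after ischemia. At 2 h, 2 h with aMSH and 8 h of ischemia, 7.36%, 6.68% and 20.8% of all probes were higher. Itgav pairs with several beta chains to bind vitronectin, fibronectin and latent TGF-beta. It read 0.51, 0.18 and -0.05 in normal rats 1 to 3 and 1.51, 1.30, 0.67 and 0.95 at 2 h of ischemia, all above. With aMSH it read 1.22, 1.11 and 1.19, and at 8 h 1.77, 1.49 and 1.81. The changes were 0.89 (SE 0.17, adjusted p = 0.000482), 0.96 (SE 0.18, adjusted p = 0.00051) and 1.47 (SE 0.18, adjusted p = 3.85e-07). After mercuric chloride Itgav changed by 0.24 at 2 h and by 0.53 at 8 h, neither past the test; without treated rat 3 the 8 h change was 0.66 (adjusted p = 0.0474).

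Itgb1, the common beta chain of most matrix receptors, read 3.18, 3.13 and 2.95 in normal rats 1 to 3 and 4.28, 4.29 and 4.56 at 8 h of ischemia. The groups lay over 1 unit apart, and the change of 1.29 (SE 0.10, adjusted p = 5.81e-10), or 2.44-fold, had the smallest adjusted p of the 53 genes in that comparison. Earlier, at 2 h of ischemia, it read 3.44, 3.28, 3.41 and 3.48, a rise of 0.32 (SE 0.10, adjusted p = 0.0271) that was lost when any of 4 rats was left out. A second Itgb1 probe gave 0.47 at 8 h with a wide SE of 0.46 (adjusted p = 0.437). Itgb4, which with Itga6 forms the laminin receptor of hemidesmosomes, read -1.94, -2.13 and -1.75 in normal rats and -0.42, -0.73 and -0.39 at 8 h of ischemia, well apart. Its change was 1.42 (SE 0.27, adjusted p = 0.000136), and the second probe gave 1.49 (SE 0.23, adjusted p = 1.25e-05). With aMSH at 2 h Itgb4 read -0.66, -0.84 and -1.86, with rat 3 among the normal rats, and the change of 0.82 (adjusted p = 0.0465) was lost without any of 4 rats; the second probe gave 0.12 (adjusted p = 0.813). Itga1, a collagen receptor chain, rose by 0.50, 0.35 and 0.44 at 2 h, 2 h with aMSH and 8 h (adjusted p = 0.00131, 0.0411 and 0.00262), and the aMSH call was lost without any of 4 rats, with 0.21 left without normal rat 1 (adjusted p = 0.324).

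The leukocyte chains Itgam and Itgb2 together form Mac-1 of neutrophils and macrophages. At 8 h of ischemia Itgam read -0.04, 0.08 and -0.22 against -0.16, 0.04 and -0.15 in normal rats, a change of 0.03, and Itgb2 read -0.20, -0.52 and -0.87 against -0.55, -0.93 and -0.94, a change of 0.28 (SE 0.14, adjusted p = 0.131). Both overlapped the normal rats. Without ischemia rat 3 the Itgb2 change was 0.45 (adjusted p = 0.0108), without normal rat 1 it was 0.41 (adjusted p = 0.0376), and without the 3 arrays that stood apart it was 0.58 (adjusted p = 0.00163). Over the same rats 4 of 8 leukocyte markers on the array rose (S100a9, Cd14, C1qa and C1qb) and none fell, against 20.8% and 20.9% of all probes. The summed linear level of the 8 was 36.2 to 49.2 against 15.6 to 24.5 in normal rats. Itgam at 2 h of mercuric chloride read -0.74, -0.34 and -0.54, below every normal rat, a fall of 0.45 on the log2 scale (adjusted p = 0.0280) that was lost without any of 4 rats. Itga7, Itga8, Itgae and Itgb7 passed in no group. Itgb1bp1, which binds the Itgb1 tail, rose by 0.52 at 8 h of ischemia (adjusted p = 0.00749), and without rat 3 by 0.24 (adjusted p = 0.0763).

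Of the 5 basement membrane collagens, 2 were higher and 2 lower at 8 h of ischemia, where 20.8% and 20.9% of all probes were, and 1 of the rises, Col4a1, passed in 3 of 6 fits that left out 1 rat. Col18a1, the source of the fragment endostatin, read 2.29, 1.93 and 2.76 against 1.41, 1.15 and 1.31 in normal rats, all higher, a rise of 1.03 (SE 0.14, adjusted p = 2.49e-06) or 2.05-fold. Col4a1, of the type IV collagen found in all basement membranes, rose by 0.39 (SE 0.15, adjusted p = 0.0454), with its rats at 2.53, 2.60 and 3.17 overlapping normal rats at 2.61, 2.17 and 2.35. Without ischemia rat 3 its change was 0.19 (adjusted p = 0.308), and the call was lost likewise without normal rat 2 or 3.

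Col4a4 and Col4a5, chains of the type IV network of the glomerular and some tubular basement membranes, fell. Col4a4 read -0.32, 0.26 and 0.11 in normal rats 1 to 3 and -1.0, -0.98 and -1.99 at 8 h of ischemia, a fall of 2.54-fold (log2 -1.34, SE 0.23, adjusted p = 4.69e-05). After mercuric chloride it read -0.89, -0.81 and -1.27 at 2 h, a change of -1.01 (SE 0.23, adjusted p = 0.00741), or -0.87 without treated rat 3 (adjusted p = 0.0531). At 8 h it read -1.31, -1.31 and -1.96 against -0.47 and -0.48 in normal rats 11 and 12, a change of -1.05 (SE 0.26, adjusted p = 0.00816). No treated rat overlapped its normal rats. The 8 h mercuric chloride call was lost when either normal rat was left out (-1.05 and -1.06, adjusted p = 0.0748 and 0.0724), with the size unmoved. Col4a5 read 4.02, 3.79 and 3.92 in normal rats and 2.99, 3.03 and 3.11 at 8 h of ischemia, clearly parted, a change of -0.87 (SE 0.11, adjusted p = 4.10e-07). After mercuric chloride it changed by -0.13 at 2 h and -0.06 at 8 h. Col15a1, of the membranes around vessels and tubules, rose at 2 h of ischemia without aMSH by 0.57 (SE 0.12, adjusted p = 0.00153), from -0.23, -0.25 and 0.05 to 0.33, 0.38, 0.40 and 0.59. Normal rats 11 and 12 read 0.54 and 0.63, as high as those ischemic rats, and with all 5 normal rats together the change was 0.28 (adjusted p = 0.215). Its second probe gave 0.40 at 2 h (adjusted p = 0.0545) and 0.40 at 8 h of ischemia (adjusted p = 0.0325), where the brighter probe gave 0.23.

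Of the 5 laminin chains, Lama3 was lower in 3 groups and Lama1 in 1. Of all probes, 4.61% and 5.67% were lower at 2 h and 8 h of mercuric chloride. The share was 0.0531% after sham and 20.9% at 8 h of ischemia. Lama3, an alpha chain of the laminin under epithelial hemidesmosomes, read -1.55, -1.48 and -1.61 at 2 h of mercuric chloride against 0.00, -0.26 and -0.30, a fall of 2.56-fold (log2 -1.36, SE 0.37, adjusted p = 0.0226). The groups were far apart, but 5 of the 6 fits that left out 1 rat lost the call, with changes of -1.41 to -1.26. At 8 h of mercuric chloride it read -1.52, -1.98 and -2.14, and its group mean was the lowest of all groups. Normal rats 11 and 12 differed from each other, at -0.51 and 2.33, so the change of -2.79 (SE 0.41, adjusted p = 4.34e-05) was -1.37 without rat 12 (adjusted p = 0.00052) and -4.21 without rat 11. The sham rats, at -0.95, -0.95 and -0.90, lay below both normal rats, and their change of -1.84 (SE 0.41, adjusted p = 0.0441) was -0.42 without rat 12 (adjusted p = 1.0) and was also lost without any sham rat. Lama1, of tubular basement membranes, read -0.68, 0.13 and 0.19 at 8 h of ischemia against 0.75, 1.15 and 0.90, all lower, a change of -1.05 (SE 0.37, adjusted p = 0.0265) that was lost without any of 3 rats. Lama4, Lamb1 and Lamb2 passed in no group; at 8 h of ischemia Lamb1 read 2.30, 2.24 and 0.38, with rat 3 far below the others.

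**Figure D4:**
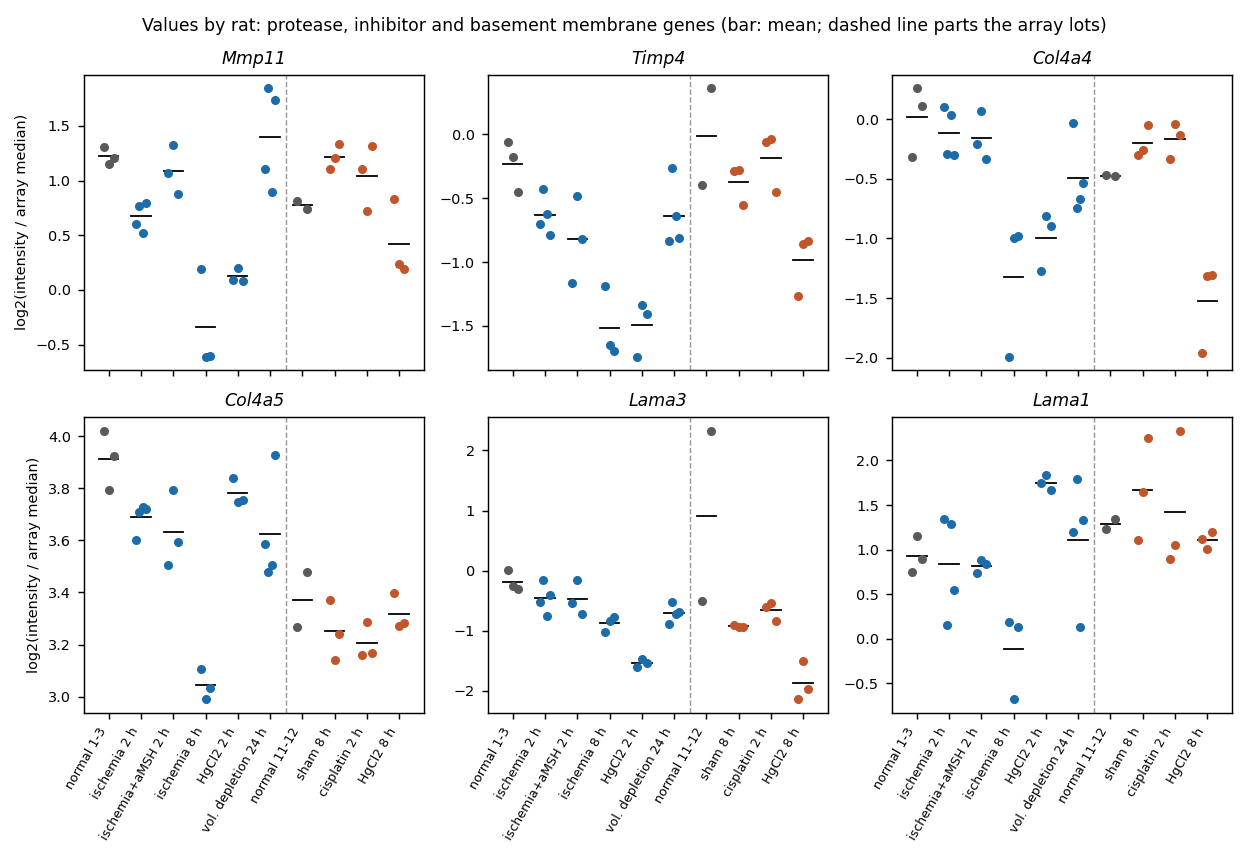
Log2 of intensity over the array median for 6 protease, inhibitor and basement membrane genes, a point for each rat and a bar for each group mean, with array lot 1 left of the dashed line and lot 2 right of it. Mmp11, Timp4 and Col4a4 are low at 8 h of ischemia and 2 h of mercuric chloride, Col4a5 is low at 8 h of ischemia, and normal rat 12 stands far above all other rats for Lama3.

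Of the 5 fibrillar collagens, 1 rose at 2 h of ischemia, where 7.36% of all probes were higher. None passed at 8 h, where 20.8% of all probes were higher and 20.9% lower. Fn1, fibronectin, changed by 0.34, 0.23 and 0.25 in the 3 ischemia groups and by 0.33 at 2 h of mercuric chloride (SE 0.15 to 0.16, adjusted p from 0.129 to 0.381), and no group passed. Its second probe gave 0.45 with aMSH (adjusted p = 0.0392), where the brighter one gave 0.23. Col1a1, the main chain of type I collagen, changed by 0.37 at 2 h of ischemia (adjusted p = 0.0597), with rats at 1.94, 2.23, 2.05 and 2.22 against 2.02, 1.60 and 1.59. The groups overlapped through normal rat 1, without which the change was 0.52 (adjusted p = 0.0169); without ischemia rat 1 it was 0.43 (adjusted p = 0.0450). Its second probe gave 0.61 at 2 h of ischemia (adjusted p = 0.0328) and 0.89 at 2 h of mercuric chloride (adjusted p = 0.00741), where the brighter probe gave 0.33 (adjusted p = 0.177). Col5a1, which sets the width of type I fibrils, rose by 0.40 at 2 h of ischemia (adjusted p = 0.0218), a call lost without any of 4 rats, and its second probe by 0.49 (adjusted p = 0.0126). At 2 h of mercuric chloride the second Col5a1 probe rose by 0.62 (adjusted p = 0.00717) and the brighter one gave 0.34 (adjusted p = 0.104). With all 5 normal rats together the Col5a1 change at 2 h of ischemia was 0.26 (adjusted p = 0.112). Col6a1, of the beaded filaments around cells, rose by 0.53 at 2 h of mercuric chloride (adjusted p = 0.0205), a call lost without normal rat 2 or treated rat 1.

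Of the 8 other collagens, 4 were lower at 8 h of ischemia and none higher, against 20.9% and 20.8% of all probes. Of these 4, 2 did not pass with a floor of 0.25. Col27a1, of cartilage and other tissues, read -0.83, -0.83 and -1.77 against -0.45, 0.10 and 0.34, all lower, a change of -1.14 (SE 0.20, adjusted p = 6.44e-05). Col26a1 fell by 1.17 on the log2 scale (adjusted p = 0.00298) with 2 of 3 rats at the floor, and Col9a2 by 0.78 (adjusted p = 0.00162). Neither passed with a floor of 0.25 of the median (-0.28 for both, adjusted p = 0.238 and 0.0802). For Col9a2, 8 h rats 1 and 2 read 0.148 and 0.149 of the median, above the floor used and below 0.25. Normal rats 1 to 3 read 0.302 to 0.322 of the median for it. Col14a1 changed by -0.42 (adjusted p = 0.0430) with overlapping rats. Itgbl1, a secreted protein with integrin-like repeats, fell by 0.76 (adjusted p = 0.000116).

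Of the 5 kidney tubule markers, 4 (Slc12a1, Lrp2, Aqp2 and Slc12a3) were lower at 8 h of ischemia, where 20.9% of all probes were lower. The summed linear level of the 5 was 63.2 to 77.2 against 134.5 to 183.3 in normal rats 1 to 3. At 2 h of mercuric chloride, where Col4a4, Timp4, Mmp11 and Lama3 fell, none of the 5 passed and the sum was 156.5 to 186.4, within or above that of the normal rats. In the 2 h ischemia rats 1 of 4 fibroblast and smooth muscle markers, Tagln, rose by 1.10, where 7.36% of all probes were higher. The summed level of the list was 18.4 to 22.3 against 11.1 to 12.2 in normal rats 1 to 3. In the sham rats it was 9.715 to 20.51, against 8.472 to 9.062 in normal rats 11 and 12. In the 8 h ischemia rats the fibroblast list had Pdgfrb higher and Myh11 lower, and of 6 endothelial markers 1 rose and 3 fell. At that time 20.8% of all probes were higher and 20.9% lower. The part of these markers in the changes of the matrix genes was not tested.

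The direct comparisons of treated groups asked whether these changes depend on time, treatment or surgery. With against without aMSH at 2 h, no member and 0% of all probes passed. An unadjusted p under 0.05 was found for 4 members and for 342 of 9456 probes. The 4 were Col15a1, Col1a1, Col26a1 and Col5a1, all lower with aMSH, and the 342 probes were not split by direction. The difference for Adamts1 was 0.00 with a 95% interval of -0.79 to 0.80, the widest of the 53, and for Col15a1 it was -0.53 (SE 0.12, unadjusted p = 0.00018, adjusted p = 0.704). For 52 of the 53 the interval lay within 1 of 0 on the log2 scale.

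Between 2 h and 8 h of ischemia 21 of the 53 differed, 8 higher and 13 lower at 8 h, against 37.7% of all probes. The higher ones included 3 of the 4 integrin beta chains, Itgb1 by 0.97 (SE 0.10, adjusted p = 3.72e-08), Itgb4 by 0.74 (adjusted p = 0.0234) and Itgb2 by 0.56 (adjusted p = 0.00200), with Mmp10 by 1.61 and Col18a1 by 0.82. Adamts1 did not differ past the threshold between the times. The lower ones included Col26a1, Col4a4, Mmp11, Lama1 and Mmp13, by 1.34, 1.21, 1.01, 0.95 and 0.93 on the log2 scale. For Col26a1, with 2 of 3 rats at the floor at 8 h, a floor of 0.25 gave -0.35 (adjusted p = 0.112). The Itgb4 call was lost without any of 4 rats or with duplicate arrays left out (0.52, adjusted p = 0.140), and the Lama1 call without any of 3 rats or with duplicates left out (-0.88, adjusted p = 0.0599).

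The sham operation was the control for the surgery, and since it lay in the other lot each group was first set against its own normal rats. Of the 53, 13 differed between 8 h of ischemia and sham (22.9% of all probes), 7 higher and 6 lower after ischemia. Adamts1 was higher by 3.23 (SE 0.62, adjusted p = 0.000423), Mmp10 by 1.58, Itgb4 by 1.48, Itgav by 1.13, Itgb1 by 1.11 and Col18a1 by 1.04. Mmp11 was lower (log2 -1.998, SE 0.34, adjusted p = 0.000109), as were Col4a4 (log2 -1.62) and Col4a5 (log2 -0.75). The Col4a5 difference was -0.21 (adjusted p = 0.249) with all 5 normal rats together, and that of Itgb4 1.17 (adjusted p = 0.0549) with duplicate arrays left out. Without normal rat 12 the Mmp13 difference of -1.07 was -0.75 (adjusted p = 0.118). The Timp4 difference of -0.93 (adjusted p = 0.0297) lay between -0.55 and -1.30 with single rats left out and passed in 4 of 11 such fits.

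Against the sham rats, 4 members differed at 8 h of mercuric chloride (13.2% of all probes), within 1 lot and with no normal rats in the comparison. Col4a4 was lower by 1.33 on the log2 scale (log2 -1.33, SE 0.23, adjusted p = 0.000278), a call kept in all 6 fits that left out 1 rat. Adamts1 was higher by 1.25 (adjusted p = 0.0438), and Mmp11 and Timp4 changed by -0.79 (adjusted p = 0.0178) and -0.61 (adjusted p = 0.0475). The Adamts1 and Timp4 calls were lost whichever rat was left out, and the Mmp11 call was kept in 2 of 6 fits. Between 2 h and 8 h of mercuric chloride no member passed by limma (0.693% of all probes). An unadjusted p under 0.05 was found for 10 members and for 885 of 9383 probes. These times lay in different lots.

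At 8 h, 11 members differed between ischemia and mercuric chloride (11.8% of all probes), 8 higher and 3 lower after ischemia. The higher ones included Lama3, by 2.10, Adamts1, by 1.97, Mmp10, by 1.61, Itgb1, by 0.98 (SE 0.16, adjusted p = 0.00015), Mmp15 and Itgav, each by 0.95, and Col18a1, by 0.84. The lower ones were Mmp11, by 1.20 on the log2 scale (log2 -1.20), Col4a5, by 0.81 (log2 -0.81), and Itgbl1, by 0.68 (log2 -0.68). Itgb1 and Mmp10 passed in all 11 fits that left out 1 rat, all with the floor of 0.1. Col4a5 did too, but with all 5 normal rats together its difference was -0.27 (adjusted p = 0.145), and those of Itgbl1 and Lama3 were -0.26 (adjusted p = 0.217) and 0.999 (adjusted p = 0.0623). The Mmp15 difference was 0.83 (adjusted p = 0.115) with duplicate arrays left out. Adamts1 passed in 4 of them and Itgbl1 in 5, Mmp11 and Mmp15 were each lost in 3, and the Lama3 difference was 0.68 (adjusted p = 0.167) without normal rat 12. Without normal rat 12 the count was 4. Timp4 and Col4a4, which fell in both groups, did not differ past the threshold.

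**Figure D5:**
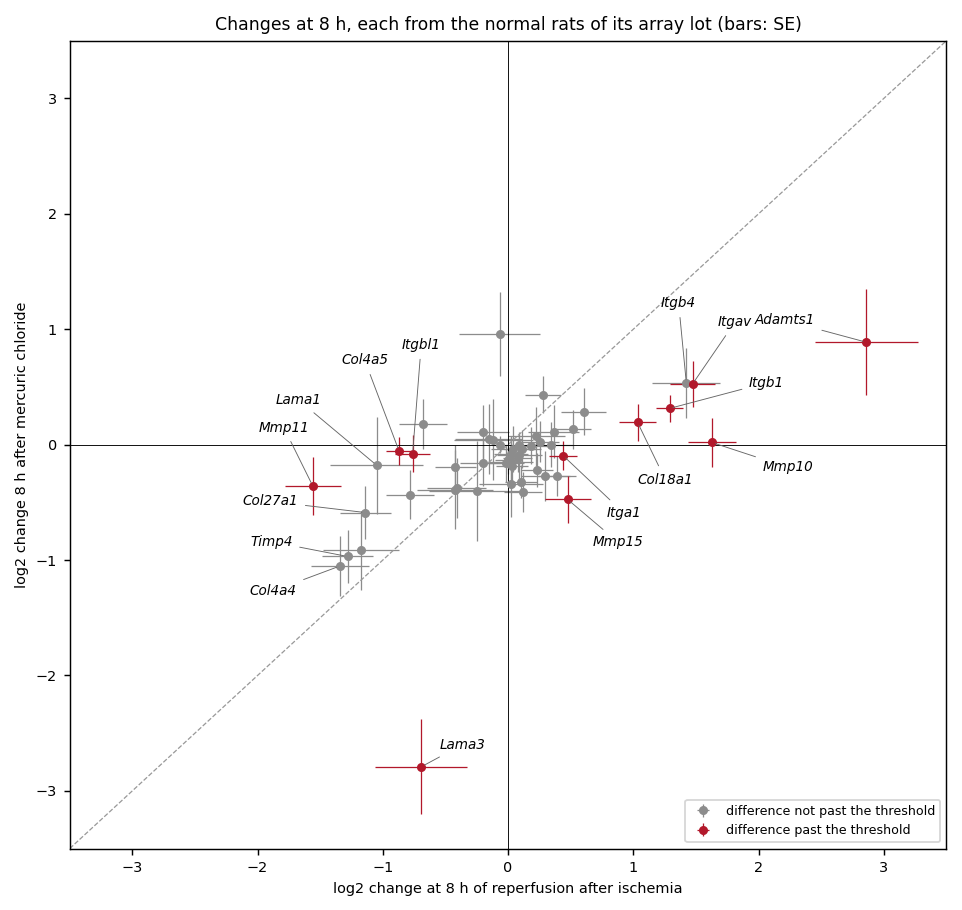
Log2 change of each of the 53 genes at 8 h of ischemia (x axis) and 8 h of mercuric chloride (y axis), each from the normal rats of its own lot, with SE bars; red points are the 11 genes whose difference passed the test and the dashed line marks equal change. Adamts1 lies at 2.86 and 0.89, Mmp10 at 1.63 and 0.02, and Lama3 at -0.69 and -2.79.

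At 2 h, 8 members differed between ischemia and mercuric chloride (15.1% of all probes), all higher after ischemia. Beside Timp3 these were Lama3 by 1.08, Col4a4 by 0.88, Timp4 by 0.86, Itgav by 0.65, Itgam by 0.38, Itgb1 by 0.33 and Itga1 by 0.32 (adjusted p from 0.00260 to 0.0423). The Lama3 difference passed in 1 of 7 fits that left out 1 rat and the Col4a4 difference in 6. Without treated rat 3 of mercuric chloride the count was 3. For Lama3, Col4a4 and Timp4 the difference is of falls after mercuric chloride from levels that had not passed the test after ischemia.

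In volume depletion 14 members had an unadjusted p under 0.05, as had 565 of 9464 probes in either direction. All 14 members were lower than normal, and the 565 probes were not split by direction. The smallest p values were those of Col15a1 (-0.44, SE 0.12, adjusted p = 0.206), Col5a1 (-0.43, SE 0.12, adjusted p = 0.233) and Col6a3 (-0.58, SE 0.16, adjusted p = 0.233). Fn1 and Col1a1, by -0.36 and -0.35, were also among them. Of the 53, 36 lay below normal and 17 above, against a median of 0.00 over all probes. The summed level of the 4 fibroblast and smooth muscle markers was also lower in these rats, 7.98 to 9.85 against 11.1 to 12.2 in normal rats 1 to 3, with none of the 4 past the test. The part of these markers in the values was not tested.

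Other genes of matrix turnover were read from a list of 46 measured genes of the plasminogen system, collagen processing, matrix glycoproteins, growth factor control, adhesion and other proteases. Each count stands beside the share of all probes higher and lower in that group. After 2 h of ischemia 10 rose and 1 fell (7.36% and 7.37% of all probes), led by Plaur, the urokinase receptor, by 3.27 (SE 0.20), the matricellular gene Ccn1 by 2.40, the collagen prolyl hydroxylase P4ha1 by 1.70 and Ccn2, or connective tissue growth factor, by 1.25. With aMSH 10 rose and 1 fell (6.68% and 6.58%). At 8 h 17 rose and 3 fell (20.8% and 20.9%), with Plaur up by 4.43 (SE 0.21), the hyaluronan receptor Cd44 by 2.67 and Tgfb2 by 1.30, and Crtap, of collagen prolyl 3-hydroxylation, changed by -1.31. At 2 h of mercuric chloride 3 rose and 2 fell (3.07% and 4.61%), with Ccn2 changed by -1.84 and Crtap by -1.65, P4ha1 by 1.09 and the lysosomal protease Ctsl by 0.84. At 8 h 5 rose and 3 fell (5.27% and 5.67%), with Crtap changed by -1.76, P4ha1 by 1.12, Ctsl by 1.07 and Plaur by 0.99. In the cisplatin group none of 45 passed, against 0.532% of all probes higher and 0.0425% lower. Sham raised 1 (0.298%), Ccn2, by 1.71, and lowered none (0.0531%). Volume depletion raised none (0.074%) and lowered 1 (0.0951%), the glycoprotein Tnc (log2 -1.17, SE 0.18, adjusted p = 0.00226).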

How the data were processed

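Kidney RNA of 31 rats was read on 36 CodeLink arrays with 9911 probes. The labels used here do not state the authors' scanner settings, background correction or scaling. The deposited values are in an unusual unit, recorded as other: their log2 fell on whole multiples of 0.0001 with an array median near 1.0, so the log2 was taken as the authors' linear intensity over the array median. A deposited 0.5 was a fill value and was left out. Realigning sham rat 3 by 2 lines raised its correlation with the median array from 0.0652 to 0.984. Intensities were divided by the array median, floored at 0.1 and brought to log2, and duplicate arrays were averaged.

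All groups and both sets of normal rats entered 1 limma 3.58.1 fit in R 4.3.3 (21 residual degrees of freedom). Comparisons across lots are differences of changes from each lot's normal rats; the lots were read from the arrays, not the labels. Tested probes had values in 2 or more rats of each compared group and in 2/3 of the rats, and lay above the floor in 3. Benjamini-Hochberg adjustment ran over all of them, and intervals are at 95%. The fit was tested on simulated data. Of the probes, 7182 had 1 symbol in the platform annotation, 17 several and 2712 none. Promoters came from RefSeq (GRCr8).

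The members, lists and tests were chosen with earlier results of these data known. Genes named were up to 8 rises and 8 falls past the threshold in each group, up to 5 each way between treated groups, those past it one way in 4 or more groups, and main matrix genes whatever their values; others named were chosen after their values were seen. Replicate numbers did not pair rats across groups: deviations of same-numbered rats correlated between -0.586 and 0.534 (median 0.017). Alternatives were a floor of 0.25, quantile normalization, no lot term, no filter, duplicates left out, a trended robust fit, sham rat 3 as deposited, a replicate block and leaving out each rat; leaving out 3 arrays that stood apart was added after seeing the data. The number of arrays limits the precision.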

Additional observations from a re-analysis of the deposited data

Results flagged for a closer look

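In 102 sets of 4 or 5 rats of a group, for 34 of the genes named, 8 held a rat whose gap to the nearest other was large against the range of its group (Dixon's test at the 95% level); chance alone marks about 1 set in 20. The 5 normal rats of both lots formed 1 set for each gene, so a difference between lots was not taken out. Among them, rat 12 read 2.33 for Lama3, against -0.51 to 0.00 in the others. Rat 12 also read 1.17 for Mmp13, against 1.64 to 1.81, and rat 2 read -0.47 for Fn1, against -0.15 to -0.02. Of the rats at 2 h of ischemia, rat 1 read 3.60 for Col4a5 (others 3.71 to 3.73) and rat 2 read 1.39 for Itgb1bp1 (others 1.61 to 1.65). In volume depletion, rat 1 read -0.54 for Col5a1 (others -0.80 to -0.76) and 2.83 for Timp3 (others 2.42 to 2.48), and rat 4 read -0.80 for Fn1 (others -0.46 to -0.42).

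Tests of the difference between treated groups set 21 genes apart between 8 h and 2 h of ischemia, 13 between 8 h of ischemia and sham, 4 between 8 h of mercuric chloride and sham, 11 between ischemia and mercuric chloride at 8 h, and 8 between them at 2 h.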

How the results depend on the processing

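Counts are of the 53 genes past the test, and the cause of each shift was not tested. With no lot term they were 14 at 2 h of ischemia, 10 at 8 h of mercuric chloride, 2 after cisplatin, 0 after sham, 2 in volume depletion, 12 between the mercuric chloride times, 22 between 8 h of ischemia and sham and 19 between ischemia and mercuric chloride at 8 h. Quantile normalization gave 5 at 8 h of mercuric chloride. No filter gave 0 after sham and 2 between mercuric chloride and sham. With sham rat 3 as deposited, the counts were 3, 2 and 8 in the ischemia groups at 2 h, 2 h with aMSH and 8 h, 2 and 1 after mercuric chloride at 2 h and 8 h, 0 after sham, 6 between the ischemia times, 4 and 2 for ischemia and mercuric chloride against sham, and 0 and 1 between them at 8 h and 2 h; the Mmp10 difference between 8 h of ischemia and sham turned to -0.19 (adjusted p = 0.914). The replicate block gave 3 with aMSH and 5 between ischemia and mercuric chloride at 2 h. Without 3 arrays that stood apart, chosen after seeing the data, the counts were 11 at 2 h of ischemia, 3 with aMSH, 8 at 8 h of mercuric chloride and 2 between the mercuric chloride times. Leaving out 1 rat at a time gave 2 to 7 with aMSH, 4 to 8 and 1 to 5 after mercuric chloride at 2 h and 8 h, 0 to 1 after cisplatin, 0 to 1 after sham, 0 to 1 between the mercuric chloride times, 1 to 3 between mercuric chloride and sham, and 4 to 13 and 3 to 8 between ischemia and mercuric chloride at 8 h and 2 h. Signal near the floor limits Mmp10, Mmp12, Col10a1, Col26a1 and Itgb1bp2. Mmp10 did not meet the filter with a floor of 0.25, so none of its calls could be checked there.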
